A study of Homo sapiens with 16 samples.

Results

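The fibroblast growth factor (FGF) ligands FGF2, FGF4, FGF5, FGF8, FGF11, FGF12, FGF13, FGF17 and FGF19 were followed in H9, a long-established line of human embryonic stem cells, while it was driven toward endoderm with activin A. The 9 genes were found by their symbols among 18495 gene-level probe sets of an exon array. They matched 12 probe sets, of which the brightest on average was kept for each gene. The study hybridised RNA from 14 biological samples on 16 arrays. The activin-treated groups were 3 samples at day 1, 3 at day 3 and 4 at day 5, all in RPMI-1640 medium with activin A at 100 ng/ml, with fetal bovine serum stepped up over the course. The 4 undifferentiated samples (day 0) were kept without activin, on mouse feeder cells or Matrigel, in feeder-conditioned medium with recombinant basic FGF at 8 ng/ml. All groups came from this 1 line, at the same passage range. Activin, medium and serum therefore changed together between day 0 and the later days, and their effects cannot be told apart. Added basic FGF is stated for the undifferentiated samples alone. Any change in its supply cannot be told apart from the other changes either.

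FGFs are signalling proteins that bind FGF receptors together with heparan sulfate and switch on the RAS, RAF, MEK and ERK kinase cascade. Human embryonic stem cells are commonly cultured with FGF2, also called basic FGF, and in mouse embryos FGF4 and FGF8 are made in the primitive streak, through which cells pass on the way to endoderm. The family also holds FGF19, a hormone-like member, and FGF11, FGF12 and FGF13, the FGF homologous factors, which stay inside the cell and bind voltage-gated sodium channels instead of acting as secreted ligands.

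Values are log2 of the deposited intensity plus 1, so a difference of 1 is a 2-fold change for all but dim probe sets, and group means are given with the standard deviation (SD). The level of one gene was not compared with that of another, since probes differ in brightness. Tests were limma fits over all probe sets with Benjamini-Hochberg adjustment, and a gene was called at an adjusted p under 0.05. Median intensity per array ran from 245.1 to 246.3. The summed intensity of 7 endoderm markers was 40626 to 54328 at day 5 and 2484 to 7097 at day 0, and all 7 rose at day 5. The summed intensity of 4 primitive streak markers was 6782 to 16720 at day 5 and 280.0 to 567.1 at day 0, and 3 of the 4 rose. Of 6 measured stem cell markers 3 fell, with sums of 16793 to 26483 at day 5 and 38163 to 49620 at day 0. These rises and falls are calls against day 0, where 2.56% of all probe sets were called higher and 2.89% lower. POU5F1, NANOG and SOX2 had no probe set of their own. One library, labelled day 3 replicate 2, lay away from its group, to which its median correlation was 0.829. Its streak sum of 349.8 lay within the day 0 range, and its endoderm sum of 3668 did too, while its stem cell sum was 29710. The median was 0.858 for day 5 replicate 2 and 0.901 to 0.962 for the other samples. For the 9 genes, and for the day 5 against day 0 counts of the gene lists, calls that change without the library labelled day 3 replicate 2 are given both ways. Without it DPPA4 joined the stem cell markers called lower at day 5 (adjusted p 0.00658), beside 4.66% of all probe sets. Summed intensities of 6 fibroblast markers ran from 1552 to 5478 at day 5 and from 1981 to 5329 at day 0. No marker of these lists was at 0 in any sample. In whole cultures, fewer cells that express a gene and less RNA per cell cannot be told apart.

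At day 5, 5 of the 9 FGF genes were called against day 0, with FGF17 and FGF8 higher and FGF4, FGF19 and FGF2 lower. Over all probe sets 5.46% were called in this comparison, 2.56% higher and 2.89% lower. At day 1 and at day 3 none of the 9 was called against day 0, where 0.00541% and 0.0270% of all probe sets were called. By unadjusted p under 0.05, 1116 probe sets passed at day 1 and 1584 at day 3. The moderated F test of any change over the 3 later days called 4 of the 9, FGF4, FGF19, FGF8 and FGF2, beside 3.73% of all probe sets. The F test's adjusted p was 0.000768 for FGF4, 0.00828 for FGF19, 0.0290 for FGF8, 0.0337 for FGF2 and 0.0513 for FGF17. Without the library labelled day 3 replicate 2 the F test also called FGF17 (adjusted p 0.000378) and FGF5 (0.0441, against 0.0946 with it), beside 8.20% of all probe sets. FGF17 passed as well with all 16 arrays (0.0287), technical replicate 2 alone (0.0498), a replicate block (0.0201), the dimmest 25% left out (0.0365), a variance trend with robust eBayes (0.0437) and a pseudocount of 16 (0.0384). FGF2 missed the F test with all 16 arrays (0.0882), with technical replicate 2 alone (0.0701) and on its dimmer probe set (0.996). Leaving out 1 sample at a time gave 2 to 6 members. FGF4 and FGF19 were called in all 14 such fits, FGF2 in 6, FGF8 in 3 and FGF17 in 1.

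**Figure D1:**
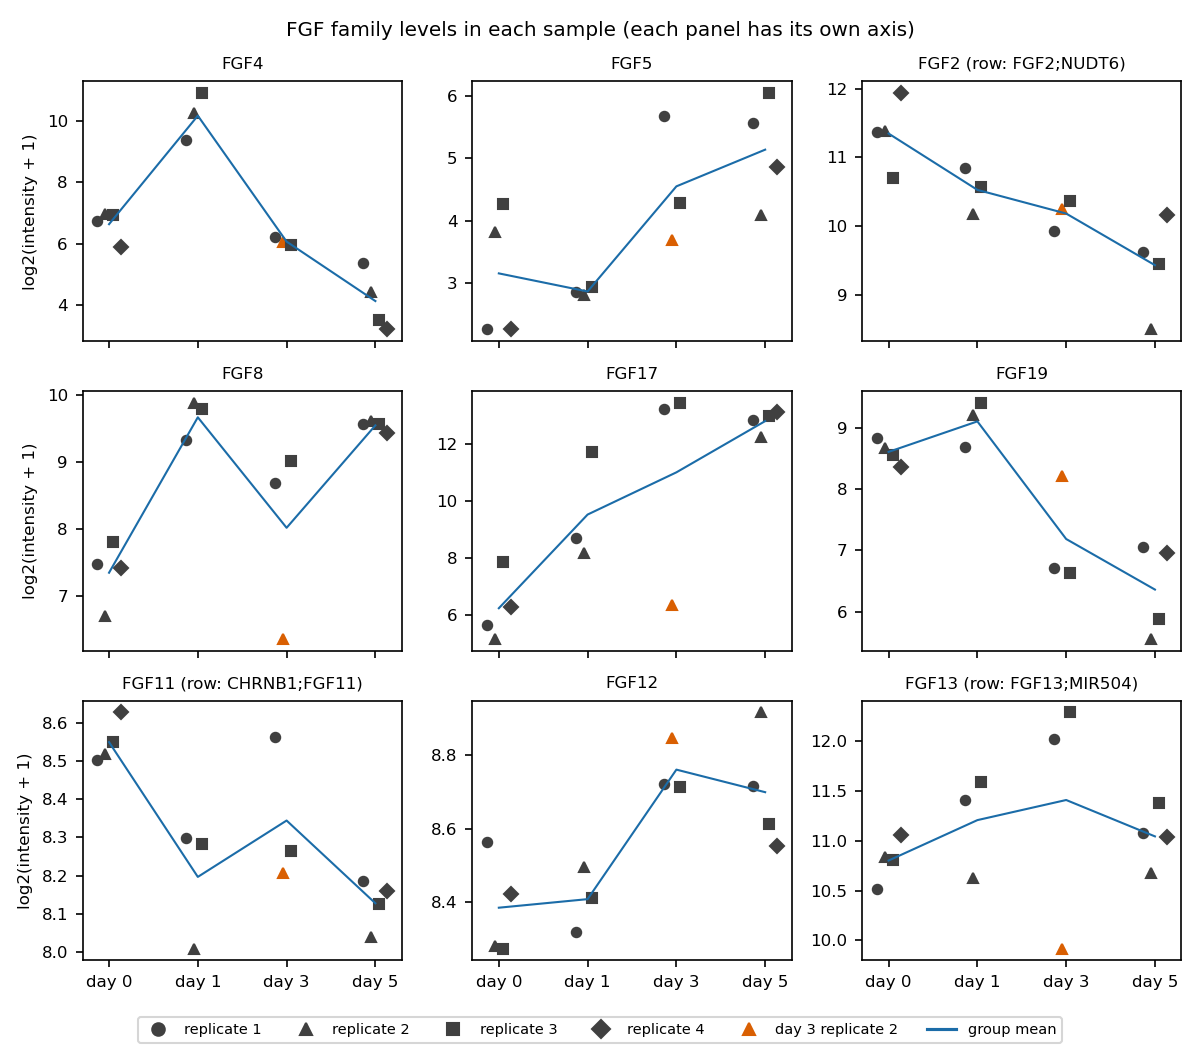
Log2 intensity (vertical axis) of each of the 9 FGF genes by day (horizontal axis), with 1 point per biological sample, shaped by replicate number, a line through the group means and the library labelled day 3 replicate 2 in orange; each panel has its own axis. FGF17 climbs by day 5 to between 12.24 and 13.12, FGF4 stands highest at day 1, at 9.37 to 10.91, and FGF12 and the FGF11 probe set shared with CHRNB1 stay within a narrow range. The dimmer probe set of FGF11 alone, not drawn, ran from 4.70 at day 5 to 7.51 at day 3.

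FGF17, a secreted FGF of the same subfamily as FGF8, had the widest range of the 9. Its log2 intensity was 5.66, 5.17, 7.87 and 6.29 in the day 0 samples, 8.71, 8.17 and 11.71 at day 1, 13.24, 6.35 and 13.44 at day 3 and 12.85, 12.24, 13.00 and 13.12 at day 5. The 4 day 5 samples lay close together and above all day 0 samples, and at day 3 the library labelled replicate 2 lay among the day 0 samples while replicates 1 and 3 were as high as day 5. The day 5 mean was 12.80 ± 0.39 and the day 0 mean 6.25 ± 1.18 (SD, n = 4 each). FGF17 rose at day 5 by 6.56 ± 1.32 (standard error, SE) on the log2 scale, 94.1-fold, with an adjusted p of 0.0108 (limma), and it was called whichever 1 of the 14 samples was left out. At day 3 its difference from day 0 was 4.76 ± 1.42 (adjusted p 0.28), and without the library labelled day 3 replicate 2 it was 7.09 with an adjusted p of 0.00102. At day 1 the difference was 3.28 ± 1.42 (adjusted p 0.78, and 0.135 without that library), although no day 1 sample was as low as a day 0 sample. Day 5 exceeded day 1 by 3.27 ± 1.42 (adjusted p 0.301), which was called without that library (adjusted p 0.0262). The difference between day 5 and day 3 was 1.80, and −0.54 without that library, neither past the test.

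FGF8, a secreted FGF best known from the streak and from brain and limb patterning in mouse and chick embryos, was already high at day 1. In log2 intensity it was at 7.47, 6.71, 7.80 and 7.41 at day 0, 9.32, 9.88 and 9.80 at day 1, 8.68, 6.36 and 9.01 at day 3 and 9.57, 9.61, 9.56 and 9.44 at day 5. Each day 1 and day 5 sample was above each day 0 sample, and the library labelled day 3 replicate 2 was the lowest of the 14. FGF8 rose at day 5 by 2.19 ± 0.47, 4.58-fold, to a mean of 9.54 ± 0.08, against 7.35 ± 0.46 at day 0 (SD, n = 4 each, adjusted p 0.015 by limma). That call was lost without day 0 replicate 2, where the adjusted p was 0.056. The day 1 difference from day 0 was almost as large, 2.31 ± 0.50 or 4.98-fold, with an adjusted p of 0.146, and 0.00353 without the library labelled day 3 replicate 2. At day 3 the difference was 0.67 ± 0.50 (adjusted p 0.806), and 1.50 (adjusted p 0.0156) without that library. Between day 5 and day 1 FGF8 differed by −0.12, with a 95% confidence interval from −1.21 to 0.97.

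FGF4, a secreted FGF of pluripotent cells and the early embryo, had its highest values at day 1. Its log2 intensity was 6.72, 6.98, 6.94 and 5.89 at day 0, 9.37, 10.25 and 10.91 at day 1, 6.22, 6.04 and 5.94 at day 3 and 5.38, 4.42, 3.50 and 3.20 at day 5. The 3 day 1 samples stood above all other samples and the 4 day 5 samples below all others. The day 1 mean of 10.18 ± 0.77 (SD, n = 3) exceeded the day 0 mean of 6.63 ± 0.51 (n = 4) by 3.54 ± 0.50 (SE), or 11.7-fold, with an adjusted p of 0.0649 (limma). It passed the test without any 1 of the library labelled day 3 replicate 2 (adjusted p 0.0194), day 5 replicate 1 (0.0167), day 5 replicate 2 (0.0467) and day 5 replicate 4 (0.0467), which enter through the shared estimate of spread. FGF4 fell by 4.11 ± 0.53 at day 3 against day 1 (adjusted p 0.0209), the only member called there, beside 0.0324% of all probe sets. With the replicate number as a block the adjusted p was 0.0579, which is no call. The call was also lost without day 1 replicate 2 (adjusted p 0.0562), day 1 replicate 3 (0.101), day 3 replicate 1 (0.124) or day 3 replicate 3 (0.104). The difference between day 3 and day 0 was −0.57 ± 0.50 (adjusted p 0.85).

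By day 5 FGF4 had fallen below the level of undifferentiated cells. Its day 5 mean was 4.12 ± 0.98, and it fell by 2.51 ± 0.46 against day 0 (adjusted p 0.00681) and fell by 6.05 ± 0.50 against day 1 (adjusted p 0.000172). Both calls held whichever 1 sample was left out. Since FGF4 is dim at day 5, its size depends on the constant added before the log, and with 16 in place of 1 the day 5 difference from day 0 was −1.77.

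FGF19, made in the embryo and later in the gut as a hormone that restrains bile acid synthesis in the liver, stayed near its day 0 level at day 1 and was low at day 5. Its log2 intensity was 8.83, 8.68, 8.56 and 8.35 at day 0, 8.69, 9.21 and 9.41 at day 1, 6.71, 8.22 and 6.62 at day 3 and 7.05, 5.55, 5.88 and 6.96 at day 5. All day 3 and day 5 samples lay below all day 0 samples, and the library labelled day 3 replicate 2 was the highest of day 3. FGF19 fell by 2.25 ± 0.41 at day 5, to a mean of 6.36 ± 0.76 against 8.61 ± 0.20 at day 0 (SD, n = 4 each, adjusted p 0.00644 by limma). Against day 1 it fell by 2.74 ± 0.44 (adjusted p 0.00537), and both calls held in each of the 14 fits with 1 sample left out. At day 3 the difference from day 0 was −1.42 ± 0.44 (adjusted p 0.3) and that from day 1 was −1.92 ± 0.47 (adjusted p 0.204). Without the library labelled day 3 replicate 2 they were −1.94 (adjusted p 0.0221) and −2.44 (adjusted p 0.0121).

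FGF2, the FGF supplied as protein to the undifferentiated cells, was lower at each later day in the mean. The array measures the cells' own RNA and not the added protein. The log2 intensities were 11.37, 11.38, 10.70 and 11.93 at day 0, 10.85, 10.17 and 10.56 at day 1, 9.93, 10.24 and 10.37 at day 3 and 9.62, 8.49, 9.44 and 10.16 at day 5. All day 3 and day 5 samples were below all day 0 samples, whereas day 1 overlapped with day 0. FGF2 fell by 1.92 ± 0.35 at day 5, to 9.43 ± 0.70 against 11.35 ± 0.51 at day 0 (SD, n = 4 each, adjusted p 0.00646 by limma), and was called in each of the 14 fits with 1 sample left out. The differences from day 0 were −0.82 ± 0.38 at day 1 (adjusted p 0.827) and −1.17 ± 0.38 at day 3 (adjusted p 0.326).

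The FGF2 probe set also carries the symbol NUDT6, a gene that overlaps FGF2 on the opposite strand, so this value cannot be assigned to FGF2 alone. A dimmer probe set with the same pair of symbols, at a mean of 5.72 at day 5 and 5.91 at day 0, differed by −0.19 ± 0.65 (adjusted p 0.92). Over the 14 samples it correlated with the brighter one at r = −0.116, so the fall was seen on 1 of the 2 probe sets. FGF2 is the only called member with a promoter window in the RefSeq table used, and the 250 upstream bases of that window are shown for this reason (GRCh38.p14, chr4:122826581-122826830, plus strand). The annotated gene begins at base 122826682, within this stretch, so that part of it lies inside the gene, and none of 5 searched motifs was found in them.
FGF2 upstream: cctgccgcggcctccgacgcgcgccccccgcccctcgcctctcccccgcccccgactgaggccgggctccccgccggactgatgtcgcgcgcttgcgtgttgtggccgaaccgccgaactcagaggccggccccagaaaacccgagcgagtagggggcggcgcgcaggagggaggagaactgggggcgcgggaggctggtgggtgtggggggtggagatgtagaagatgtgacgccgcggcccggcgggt

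FGF5, a secreted FGF that marks the primed epiblast in mouse embryos and restrains hair growth, was the dimmest member, within the lowest 25% of all probe sets by mean. Its log2 intensity was 2.27, 3.83, 4.28 and 2.26 at day 0, 2.85, 2.81 and 2.94 at day 1, 5.67, 3.70 and 4.29 at day 3 and 5.56, 4.10, 6.04 and 4.86 at day 5. Day 5 was mostly higher, but its lowest sample lay under the highest of day 0. The day 5 mean was 5.14 ± 0.85 and the day 0 mean 3.16 ± 1.05 (SD, n = 4 each), a difference of 1.98 ± 0.56 with an adjusted p of 0.0597 (limma). FGF5 was called without any 1 of day 0 replicate 3 (adjusted p 0.0402), day 3 replicate 1 (0.0473), the library labelled day 3 replicate 2 (0.0393) and day 5 replicate 2 (0.0387). With 1 sample left out at a time the adjusted p ran from 0.0387 to 0.186. Against day 1 the day 5 difference was 2.27 ± 0.61 (adjusted p 0.0621), and all day 5 samples were above all day 1 samples, as for 7.08% of all probe sets. That difference was called without day 3 replicate 1 (adjusted p 0.0499), the library labelled day 3 replicate 2 (0.0380) or day 5 replicate 2 (0.0409). A second probe set, shared with CFAP299, differed by 0.53 ± 0.47 between day 5 and day 0 and correlated with the first at r = 0.439 over the 14 samples.

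None of the 3 intracellular FGF homologous factors passed the test against day 0 at any day with all samples in the fit. FGF11 had log2 intensities of 8.50, 8.52, 8.55 and 8.63 at day 0, 8.30, 8.01 and 8.28 at day 1, 8.56, 8.21 and 8.26 at day 3 and 8.19, 8.04, 8.13 and 8.16 at day 5. The day 1 and day 5 samples lay below all day 0 samples, by small amounts. The day 5 difference from day 0 was −0.42 ± 0.17 (adjusted p 0.225, limma). This probe set is shared with the neighbouring gene CHRNB1. The probe set that carries FGF11 alone, dimmer at 5.96 ± 1.00 at day 5 and 7.15 ± 0.23 at day 0 (SD, n = 4 each), differed by −1.20 ± 0.45 (adjusted p 0.175). Its day 1 samples overlapped with day 0, at a difference of −0.16 ± 0.49.

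FGF12 had the least spread between group means. Samples were at log2 intensities of 8.56, 8.28, 8.27 and 8.42 at day 0, 8.32, 8.49 and 8.41 at day 1, 8.72, 8.85 and 8.71 at day 3 and 8.72, 8.92, 8.61 and 8.55 at day 5. The 3 day 3 samples were above all day 0 samples, while the day 5 samples overlapped with them. The difference from day 0 was 0.38 ± 0.19 at day 3 (adjusted p 0.642, limma) and 0.31 ± 0.18 at day 5 (adjusted p 0.416). Of the 10 upstream windows of 250 bases that RefSeq gave for 5 of the members, 1 held the octamer ATGCAAAT, the sequence bound by POU factors, and it belonged to FGF12. That letter string occurs on either strand in 1.632% of the 35116 windows of this length, and it is shown for that reason, as a match of letters only. The window lies at chr3:192727542-192727791 (GRCh38.p14, minus strand), and the capitals mark the octamer, 46 to 39 bases before the start.
FGF12 upstream: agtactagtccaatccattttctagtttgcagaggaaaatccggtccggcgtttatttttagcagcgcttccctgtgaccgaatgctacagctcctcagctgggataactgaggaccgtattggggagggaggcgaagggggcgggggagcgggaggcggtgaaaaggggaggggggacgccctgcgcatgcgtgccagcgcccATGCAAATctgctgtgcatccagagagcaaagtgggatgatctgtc

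The other motifs searched on both strands were the T-box string TCACACC, in 2.762% of all windows, the SMAD string CAGAC, in 38.003%, the forkhead string TGTTTAC, in 2.979%, and the GATA string AGATAA, in 9.167%. Among the windows of the members only the SMAD string was found, in 1 window each of FGF5, FGF11 and FGF12 and in both of FGF13.

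FGF13 was bright in all samples, with log2 intensities of 10.51, 10.83, 10.80 and 11.05 at day 0, 11.41, 10.62 and 11.59 at day 1, 12.02, 9.92 and 12.28 at day 3 and 11.07, 10.68, 11.38 and 11.04 at day 5. At day 3 replicates 1 and 3 were the highest of the 14, and the library labelled day 3 replicate 2 was the lowest of the 14. The difference from day 0 was 0.61 ± 0.47 at day 3 (adjusted p 0.813, limma), and without that library 1.35 with an adjusted p of 0.0306. At day 5 it was 0.24 ± 0.43 (adjusted p 0.841), with a 95% confidence interval from −0.70 to 1.18. The FGF13 probe set also carries the symbol of the microRNA gene MIR504, so its value is not of FGF13 alone. The mature products of MIR504 are shown so that the shared probe set can be placed, at chrX:138667760-138667781 for the 5p arm and chrX:138667724-138667744 for the 3p arm (RefSeq, GRCh38.p14, minus strand). Capitals mark the seed, bases 2 to 8, and the arms share no seed.
hsa-miR-504-5p: aGACCCUGgucugcacucuauc
hsa-miR-504-3p: gGGAGUGCagggcaggguuuc

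**Figure D2:**
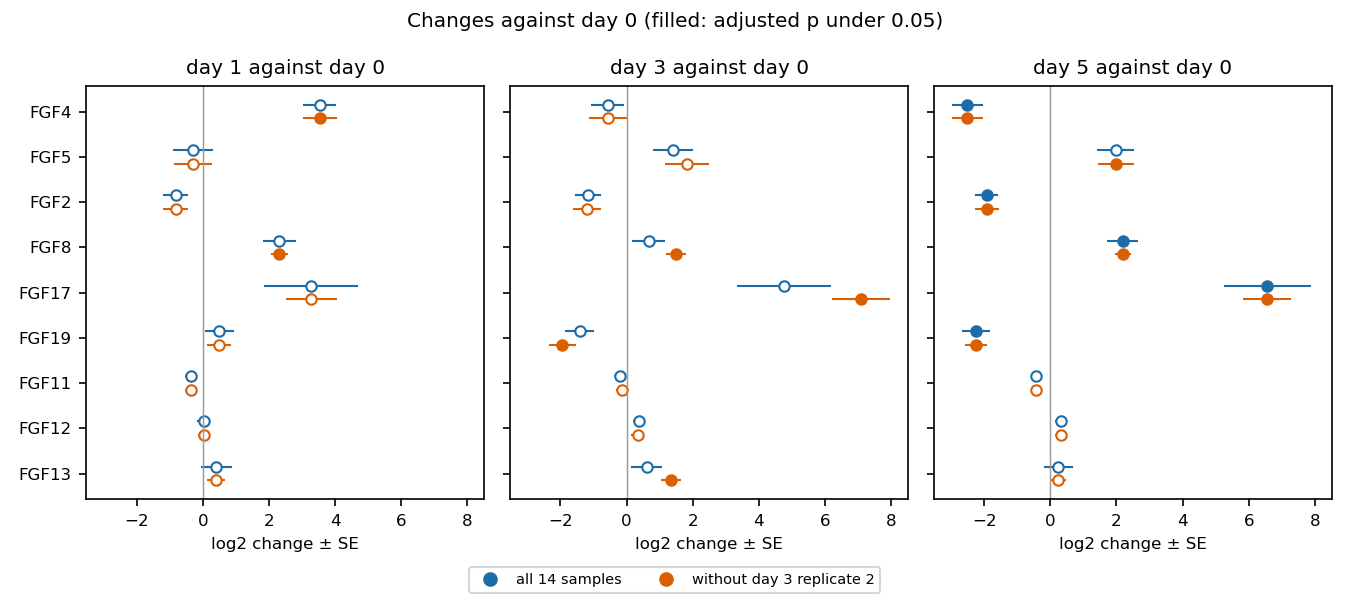
Log2 change (horizontal axis) of each of the 9 FGF genes (vertical axis) at day 1, day 3 and day 5 against day 0, with the limma SE as bars and called changes filled. With all 14 samples (blue) the 5 filled points are all at day 5, from −2.51 for FGF4 to 6.56 for FGF17. Without the library labelled day 3 replicate 2 (orange) FGF4 and FGF8 are filled at day 1 too. In that fit FGF17, FGF8, FGF13 and FGF19 are filled at day 3, and FGF5 joins the filled points at day 5.

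The groups separated for more members than were called. At day 1, 3 of the 9 had no overlap with day 0 and were higher, FGF4, FGF8 and FGF17, beside 4.86% of all probe sets, and FGF11 had no overlap and was lower, beside 6.62%. That holds for the FGF11 probe set shared with CHRNB1. On the probe set of FGF11 alone, day 1 (6.82 to 7.28) overlapped with day 0 (6.98 to 7.46). At day 3 FGF12 lay above day 0 without overlap, beside 3.27% of all probe sets, and FGF2 and FGF19 lay below it, beside 6.55%. At day 5 FGF8 and FGF17 lay above day 0, beside 6.07%, and FGF2, FGF4, FGF11 and FGF19 lay below it, beside 8.57%. Without the library labelled day 3 replicate 2, 2 of the 9 were called higher at day 1, FGF4 and FGF8, beside 0.135% of all probe sets, and none lower. At day 3 FGF17, FGF8 and FGF13 were called higher, beside 2.05%, and FGF19 lower, beside 1.14%. At day 5 FGF5 joined FGF17 and FGF8 on the higher side, beside 4.07%, and FGF4, FGF19 and FGF2 were lower, beside 4.66%.

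Between the later days, FGF4 and FGF19 were the 2 members called at day 5 against day 1, both lower, beside 3.33% of all probe sets in either direction and 1.33% lower. Without the library labelled day 3 replicate 2 FGF17 and FGF5 were called there too, both higher, beside 3.54%. At day 3 against day 1 that exclusion added FGF19 to FGF4 on the lower side, beside 0.843%. No member was called between day 5 and day 3, beside 0.0973% of all probe sets, with 1107 probe sets at an unadjusted p under 0.05. FGF4 was nearest to a call there, at −1.94 ± 0.50 (adjusted p 0.277), and its day 5 samples all lay below its day 3 samples, as for 2.37% of all probe sets.

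FGF4 and FGF19 are next to each other on chromosome 11, with FGF3 on the other side of FGF4. Over the 14 samples FGF4 and FGF19 correlated at r = 0.805, FGF8 and FGF17 at 0.770, and FGF2 and FGF19 at 0.735, as did FGF2 and FGF11. FGF5 and FGF19 ran opposite, at −0.751, as did FGF17 and FGF19, at −0.717. These coefficients describe samples that share days and arrays, and carry no test. FGF3, a secreted FGF of the early embryo, differed by 0.37 between day 5 and day 0 (adjusted p 0.796, limma). At day 1 FGF4 exceeded day 0 by 3.54 and FGF19 by 0.50, and the gap between these changes was not tested.

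Of 22 other genes measured alone within 2 protein-coding genes of a member on either side, 2 were called at day 5 against day 0, beside the 5.46% of all probe sets. DMTN, an actin-bundling protein gene next to FGF17, rose by 1.32 ± 0.27 to 7.67, against 6.35 at day 0 (adjusted p 0.0119, limma), and was called in all 14 fits with 1 sample left out. DPCD, near FGF8, rose by 1.55 ± 0.41 to 9.70, against 8.15 at day 0 (adjusted p 0.0472), but was called in only 3 of the 14 such fits.

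The genes most like FGF4 and FGF17 in pattern were ranked by Pearson correlation over the 14 samples among 1578 single-symbol probe sets with an SD of at least 1. For FGF4 they were SPIB (r = 0.917), an ETS factor known from lymphoid cells, THBS2 (0.878), a matrix glycoprotein gene, BRINP1 (0.821), HEY1 (0.806), a Notch target, and RHOH (0.799). For FGF17 they were GATA6 (0.988), an endoderm transcription factor, CER1 (0.980), a secreted nodal and BMP antagonist, ROR2 (0.968), a WNT5A receptor, FAM89A (0.963) and HAS2 (0.957), a hyaluronan synthase. GATA6 had log2 intensities of 12.05, 11.37, 13.24 and 13.20 at day 5 and of 6.33, 5.71, 7.79 and 6.87 at day 0. Its library labelled day 3 replicate 2 was at 7.54 while the other day 3 samples were at 12.34 and 12.90, the same split as in FGF17. SPIB was 7.95, 7.85 and 7.68 at day 1 and 6.36, 6.94, 6.61 and 4.60 at day 0, so that its day 1 samples all stood above those of day 0, as in FGF4. Both genes were picked by correlation over these same samples, which favours such shared features, so they carry no test.

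**Figure D3:**
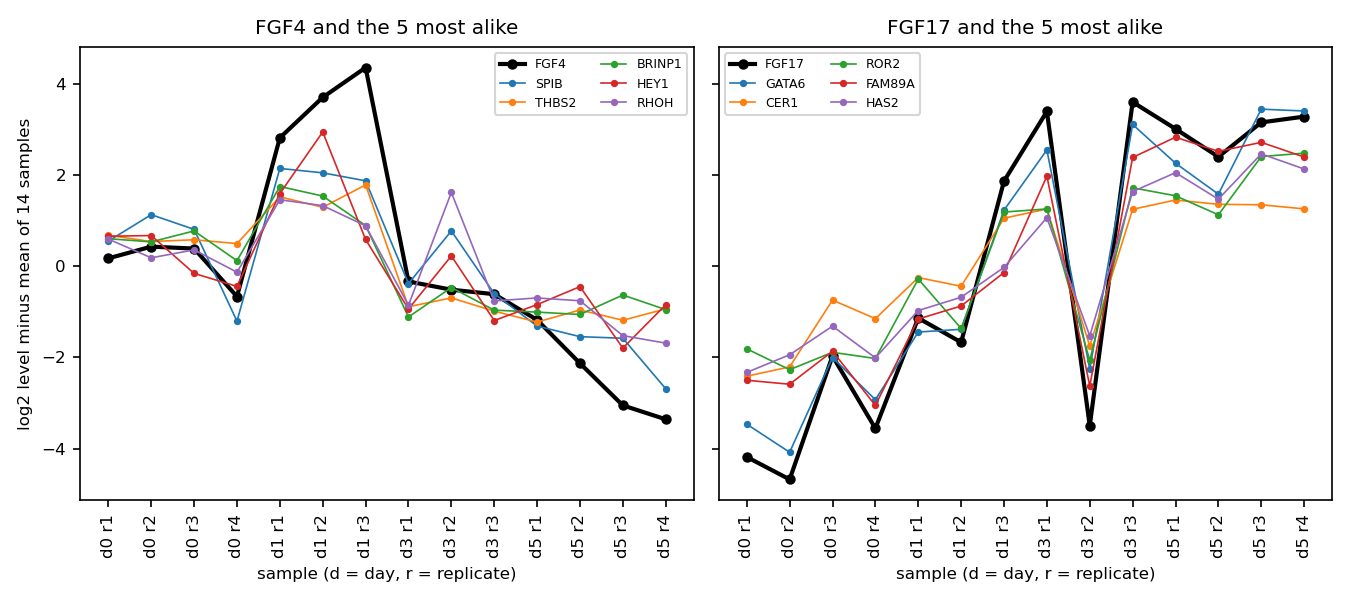
Log2 intensity minus each gene's mean over the 14 samples (vertical axis) for FGF4 and FGF17 (black) and the 5 genes most correlated with each (colours), by sample in day order (horizontal axis). The genes beside FGF17 dip together in the library labelled day 3 replicate 2, where GATA6 is at a log2 intensity of 7.54. Beside FGF4, SPIB, THBS2 and BRINP1 stand highest at day 1. HEY1 at day 1 replicate 3 (6.50) lies below day 0 replicates 1 and 2 (6.57 and 6.59). RHOH is highest in the library labelled day 3 replicate 2 (9.11). The genes were picked by correlation over these same samples, so the features they share carry no test.

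Among the other FGF ligands, 10 of 13 had a probe set of their own, and none was called at day 5 against day 0 in either direction. Their median difference was 0.37, against −0.02 over all probe sets. FGF10, known from limb and lung budding, was at 7.51, 7.31, 7.82 and 7.97 at day 5 and at 5.79, 7.01, 4.04 and 6.41 at day 0. It differed by 1.84 ± 0.84 without overlap (adjusted p 0.284, limma), and was called without the library labelled day 3 replicate 2 (adjusted p 0.0359). FGF20 differed by 1.68 ± 0.67 (adjusted p 0.206).

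Of 7 receptors and co-receptors, all measured, 1 fell and none rose at day 5 against day 0, beside 2.89% and 2.56% of all probe sets. Their median difference was −0.08. FGFR2, a receptor tyrosine kinase, had log2 intensities of 8.70, 8.35, 9.08 and 9.04 at day 5 and of 10.19, 10.21, 9.82 and 9.74 at day 0. The groups did not overlap, and FGFR2 fell by 1.20 ± 0.28 (adjusted p 0.0239, limma). That call was lost without day 0 replicate 1 (adjusted p 0.0820), day 0 replicate 2 (0.0803), day 5 replicate 1 (0.0698) or day 5 replicate 2 (0.0624). FGFR4, the main FGF19 receptor in liver, differed by −0.77 ± 0.22 without overlap (adjusted p 0.0637, and 0.0440 without the library labelled day 3 replicate 2). FGFR1 differed by −0.92 ± 0.43 (adjusted p 0.293), and its day 5 samples, up to 10.61, also lay below its day 0 samples, from 10.80 up.

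Of 19 extracellular partners of FGFs 17 were measured. Between day 5 and day 0, 1 of them rose and 1 fell, beside 2.56% and 2.89% of all probe sets. Their median difference was −0.02. SDC1, a heparan sulfate proteoglycan, fell by 1.10 ± 0.21 (adjusted p 0.00732, limma), with 7.98, 7.54, 8.03 and 8.13 at day 5 and 9.01, 9.0, 9.05 and 9.02 at day 0. FLRT3, a membrane protein that binds FGF receptors, rose by 3.38 ± 0.78 (adjusted p 0.0221), with 10.73, 10.03, 10.94 and 11.02 at day 5 and 6.42, 7.41, 7.87 and 7.52 at day 0. Neither overlapped between the groups. SDC1 was called whichever sample was left out. FLRT3 missed the threshold without any 1 of day 0 replicates 1, 2 and 4 and day 5 replicates 1, 3 and 4, with adjusted p values up to 0.0794. Without the library labelled day 3 replicate 2 its adjusted p was 0.000167, and FLRT2 (2.17) and SULF2 (1.56) were called higher too. The share of all probe sets called higher was then 4.07%.

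Several partners moved between day 1 and day 5. FGFBP3, a secreted FGF carrier, rose by 2.42 ± 0.44 at day 5 against day 1 (adjusted p 0.00979, limma), with 10.13, 8.24, 9.96 and 8.39 at day 5 and 6.62, 7.04 and 6.61 at day 1. It lost the call without day 1 replicate 1 (adjusted p 0.0591). SDC2, a syndecan, rose by 1.56 (adjusted p 0.00798) and SULF1, which trims heparan sulfate outside the cell, fell by 1.73 (adjusted p 0.00616), both called whichever sample was left out. In that comparison 3 of the 17 were called higher, beside 370 of all 18495 probe sets, and 2 lower, beside 246, with SDC1 as the second. Of the higher ones FLRT3 had an adjusted p of 0.0496 and was called in only 3 of the 14 fits with 1 sample left out. Without the library labelled day 3 replicate 2, 5 of the 17 were called higher, beside 3.54% of all probe sets, with SULF2 (adjusted p 0.0225) and HS6ST2 (0.0337) added. SDC1 lost that call without day 1 replicate 1 (adjusted p 0.0501) or day 1 replicate 3 (0.0573). The day 1 samples were the low ones for SDC2 and the high ones for SULF1. SDC2 was 9.99, 10.41 and 9.54 at day 1 and 11.37, 11.38, 11.42 and 11.79 at day 0, and SULF1 was 8.55, 9.27 and 9.03 at day 1 and 7.37, 7.91, 7.43 and 7.38 at day 0. Their day 1 differences from day 0 had adjusted p values of 0.0918 and 0.107. SDC2 was called there without the library labelled day 3 replicate 2 (adjusted p 0.0440).

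Of 15 genes of the signal relay from receptor to ERK, 8 were measured alone, none was called at day 5 and their median difference from day 0 was −0.13. The largest were those of SHC1, an adaptor (−0.82 ± 0.52), and HRAS, a RAS protein (0.73 ± 0.41). Of 16 feedback and target genes of the ERK cascade, 15 were measured. At day 5 against day 0, 1 of them rose and 3 fell, beside 2.56% and 2.89% of all probe sets, with a median difference of −0.33. DUSP4, a phosphatase that switches off ERK in the nucleus, rose by 2.59 ± 0.33 (adjusted p 0.0008, limma), with 9.54, 10.25, 10.36 and 10.65 at day 5 and 7.86, 7.08, 8.14 and 7.38 at day 0. ETV1, an ETS transcription factor, fell by 1.67 ± 0.22 (adjusted p 0.000847), with 8.62, 8.27, 8.18 and 8.12 at day 5 and 10.16, 10.19, 9.67 and 9.86 at day 0. For both genes the day 5 and day 0 samples lay fully apart, and both were called whichever sample was left out.

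SPRY1, a Sprouty feedback inhibitor, fell by 1.17 ± 0.25 at day 5 (adjusted p 0.0143, limma), a call lost without day 0 replicate 1 (adjusted p 0.0562). EGR1, an immediate early transcription factor, fell by 1.77 ± 0.45 (adjusted p 0.0372), but lost the call without any 1 of the 8 day 0 and day 5 samples or day 1 replicate 3, with adjusted p values up to 0.122. SPRY2 differed by 1.02 ± 0.28 in the opposite direction to SPRY1 (adjusted p 0.055, and 0.0135 without the library labelled day 3 replicate 2). SPRY4 and DUSP6, further feedback inhibitors, differed by −0.33 ± 0.57 and −0.33 ± 0.27. The feedback list thus held called changes in both directions.

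**Figure D4:**
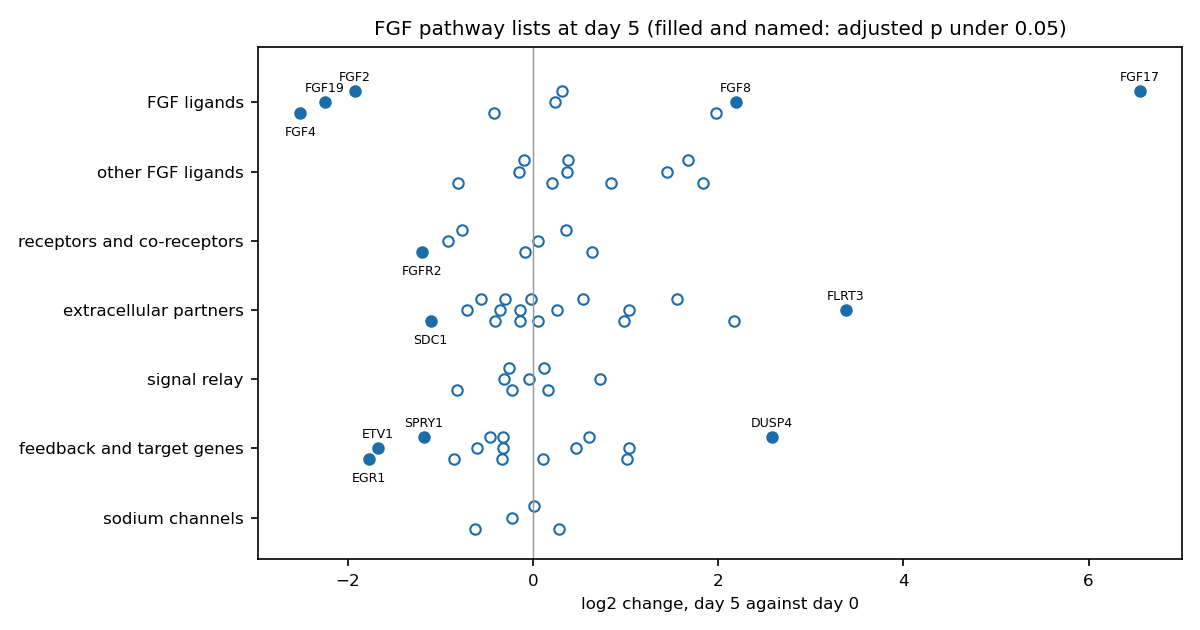
Log2 change at day 5 against day 0 (horizontal axis) for the measured genes of each FGF pathway list (rows), with 1 point per gene and called genes filled and named. The 9 members spread from −2.51 to 6.56, while the 8 relay genes and the 10 other ligands hold no called gene. Members and lists were chosen with earlier results of these data known, so the difference between the lists carries no test.

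Of 6 sodium channel genes, partners of the FGF homologous factors in nerve and muscle, 4 were measured and none was called at day 5 against day 0, with a median difference of −0.11. The 2 largest differences were those of SCN9A, at −0.63 ± 0.32 (adjusted p 0.349, limma), and SCN3A, at 0.29 ± 0.25 (adjusted p 0.653).

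Single markers of other cell types differed at day 5, within lists that went both ways. Over all probe sets 2.56% were called higher and 2.89% lower at day 5 against day 0. Of 4 neural ectoderm markers PAX6 was called, 4.34 higher at day 5 than at day 0, while NES differed by −1.21 (adjusted p 0.545, limma). The list's median difference was 0.88, and its summed intensity was 5853 to 10209 at day 5 and 3722 to 7448 at day 0. Without the library labelled day 3 replicate 2 OTX2 was called higher too (1.74, adjusted p 0.0330), beside 4.07% of all probe sets. Of 5 mesoderm markers HAND1 rose and KDR fell, with a median of −0.15 and sums of 1026 to 1429 at day 5 and 2004 to 2144 at day 0. Of 6 trophectoderm and extraembryonic markers GATA3 rose and KRT7 differed by −1.19 (adjusted p 0.102), with a median of 0.18 and sums of 521.2 to 1005 at day 5 and 330.2 to 504.0 at day 0. Of 6 fibroblast markers LUM rose and COL1A1 differed by −1.80 (adjusted p 0.184), with a median of 0.18. The part of these cells in the FGF values was not tested.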

How the data were processed

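RNA of H9 cells was hybridised to Human Exon 1.0 ST arrays. The deposited values are linear gene-level intensity, on genome build hg18 per the submitters' processing notes. How they were summarised and normalized is not given in the sources used here. From the deposited values log2(value + 1) was computed here, and the technical arrays of replicate 4 at day 0 and day 5 were averaged, which left 14 samples. Over the members, the technical arrays of these 2 samples differed by a median of 0.189, and at most by 0.801 for FGF4. That median is over 18 differences, each of 1 gene in 1 sample, from replicate 4 of day 0 and of day 5 alone. Arrays carry no read depth, so precision is limited by their number.

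Days were compared in limma 3.58.1 under R 4.3.3 (lmFit, then eBayes), modelling the day alone, over 18495 probe sets with Benjamini-Hochberg adjustment at 0.05. Simulated data with known changes were used to test the code. A gene's probe set was that of highest mean. The named genes were the 9 members, the 5 genes most correlated with FGF4 and with FGF17, list members past the test (or the 2 largest differences), and the 2 nearest genes on each side. The members, lists and tests were chosen with earlier results of these data known. Nothing in the labels says whether the biological replicates were separate cultures, so p-values measure the spread between these samples. Same-numbered samples deviated together, with every correlation above 0.1, just between day 3 and day 1 (0.188 to 0.509); the labels give no pairing. RefSeq sequences and gene order are of GRCh38.p14. Figures used matplotlib 3.10.9 in Python 3.11.15 with pandas 2.3.3.

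Alternatives were a random block for the sample over the 16 separate arrays, 1 technical array of each pair, a replicate block, fits restricted to the days compared, median centring, quantile normalization, the dimmest 25% left out, robust eBayes with a trend, array weights, a pseudocount of 16, the probe set of lowest mean, a threshold of 0.01, each sample left out, and replicate 2 of days 3 and 5 both left out.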

Additional observations from a re-analysis of the deposited data

How the results depend on the processing

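The number of members called changed with several settings, and calls over all probe sets can move as well. At day 3 against day 0, 0.0270% of all probe sets were called. Without the library labelled day 3 replicate 2, 2.05% were called higher there and 1.14% lower. The counts below stand without such shares. From these counts alone, a change particular to the members cannot be told apart from a general gain in calls. At day 1 against day 0, 0 members were called. The count was 1 with all 16 arrays, with the dimmest 25% left out, with a variance trend and robust eBayes or with a pseudocount of 16, 2 when the fit held just the days compared and with replicate 2 of days 3 and 5 both left out, and 4 with array weights. At day 3 against day 0, 0 members became 6 with array weights and 4 with both replicates 2 left out. At day 5 against day 0, 5 members became 3 at a threshold of 0.01, 4 on the probe set of lowest mean, where FGF2 was not called, and 6 with array weights, with technical replicate 1 alone and with both replicates 2 left out. At day 3 against day 1, 1 member became 0 with a replicate block, when the fit held just the days compared and at a threshold of 0.01, 8 with array weights and 3 with both replicates 2 left out. At day 5 against day 1, 2 members became 6 with array weights and 4 with both left out, and at day 5 against day 3, 0 became 2 with array weights. By the F test 4 members became 8 with array weights, 2 at a threshold of 0.01, 7 with both left out, 3 on the probe set of lowest mean, and 5 with the replicate block, the dimmest 25% left out, a variance trend and robust eBayes or a pseudocount of 16, where FGF17 was added. With all 16 arrays and with technical replicate 2 alone it stayed at 4, with FGF17 in place of FGF2. Array weights gave day 1 replicate 1 a weight of 17.331 and the library labelled day 3 replicate 2 one of 0.097, and their estimation stopped before it converged. With 1 sample left out at a time the counts ran from 0 to 2 at day 1 against day 0, 0 to 4 at day 3 against day 0, 4 to 6 at day 5 against day 0, 0 to 2 at day 3 against day 1, 2 to 4 at day 5 against day 1, 0 to 0 at day 5 against day 3 and 2 to 6 by the F test.

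Replicate numbers met the criterion for pairing (every same-numbered pair correlated above 0.1) between day 3 and day 1, at 0.188 to 0.509, and between no other 2 days. Same-numbered samples of different days had correlated deviations of −0.284 to 0.645 (median 0.118, 19 pairs, 10 of them above 0.1). Differently numbered pairs ran from −0.616 to 0.516 (median −0.057, 54 pairs, 21 of them above 0.1). With the replicate block FGF4 at day 3 against day 1 had an adjusted p of 0.0579, FGF17 by the F test one of 0.0201, and FGF2 at day 5 against day 1 differed by −1.32 (adjusted p 0.0482).

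Signs turned for differences that were not called. With array weights FGF8 at day 5 against day 1 was 0.16, FGF12 at day 1 against day 0 −0.070 and FGF17 at day 5 against day 3 −0.13. On the probe set of lowest mean FGF2 was 0.20 at day 3 against day 0, 0.46 at day 3 against day 1 and 0.060 at day 5 against day 1, FGF5 was −0.28 at day 5 against day 3 and FGF11 −0.10 at day 3 against day 1. With both replicates 2 left out FGF17 was −0.35 at day 5 against day 3. With 1 sample left out at a time FGF12 ran from −0.020 to 0.083 and FGF5 from −0.59 to 0.083 at day 1 against day 0. FGF13 ran from −0.24 to 0.95 at day 3 against day 1, from −0.45 to 0.027 at day 5 against day 1 and from −1.11 to 0.074 at day 5 against day 3, where FGF17 ran from −0.54 to 3.01. The cause of these turns was not tested. Of the values under settings that left out no single sample, 656 kept direction and side of the threshold, 43 newly passed it, 6 no longer passed it and 9 turned sign. FGF5, at the dim end of the array, and the 3 probe sets shared with other genes limit what can be said of those members.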
